A study of Komagataella phaffii CBS 7435 with 16 samples.

Results

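FLD1 and FDH1 are the formaldehyde and formate dehydrogenase genes of the methylotrophic yeast Komagataella phaffii, a host for recombinant protein production. They are 2 of the 5564 features in the abundance tables, where FLD1 is PP7435_Chr3-0140.t01 and FDH1 is PP7435_Chr3-0238.t01. The tables hold identifiers without names, so the gene names come from the choice of these identifiers, and sequence identity was not checked here. The genes were chosen with their levels across the 4 groups already known, so these levels are described without tests.

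Methylotrophic yeasts oxidise methanol to formaldehyde inside peroxisomes. Part of the formaldehyde enters assimilation, and the rest is oxidised in the cytosol to carbon dioxide, a route called dissimilation that forms NADH and removes a toxic intermediate. Formaldehyde dehydrogenase (FLD1) acts on the glutathione adduct of formaldehyde, and formate dehydrogenase (FDH1) carries out the last step, from formate to carbon dioxide. Both genes are known for strong expression on methanol and for low expression in excess glucose.

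RNA was sequenced from the wild-type strain CBS7435 in glucose-limited chemostats held at 25 °C and pH 5.5 with a dilution rate of 0.075 per hour. No methanol feed is named in the labels. The 16 libraries form 4 groups of 4 biological replicates. The control group was labelled 30% oxygen at 5 volume changes, a volume change being 1 replacement of the reactor volume by fresh medium. The other groups carry the label 0% oxygen, with sampling after 0.4, 4 and 5 volume changes. Different values stand in the treatment protocol, with 21% oxygen in the inlet air until 66 h for the control, then 8% inlet oxygen for 5, 50 and 70 h. Labelled names are used below. The control was also sampled earlier in the cultivation than the other groups, so oxygen and time cannot be told apart. The labels do not say whether equal replicate numbers mark the same culture.

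Library totals lay between 23085262 and 40699763 estimated counts, the lowest being replicate 2 at 5 volume changes of 0% oxygen. Replicate 4 of that group held 0.854% of its counts in r features (those with identifiers ending in r) outside the mitochondrial chromosome, against 0.014% to 0.0381% in the other 15 libraries. Within each group, replicate libraries were more unlike than counting error alone gives (lowest chi-square, 19.1 per degree of freedom). Levels are relative to all RNA in a library, and fewer cells with the transcript cannot be told apart from less transcript per cell.

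FLD1 has a coding length of 1140 nt and FDH1 of 1098 nt, enough for 379 and 365 residues before a stop codon. Both lie on chromosome 3 by their identifiers, with 97 identifier numbers between them. Estimated counts of both were whole numbers, to within 1e-06, in all 16 libraries, as were those of 96.1% of features, so no fractional assignment of reads shared with other features was visible. The smallest count of either gene was 131 reads for FDH1, with a 95% exact Poisson interval of 110 to 155 that covers counting error only.

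At 30% oxygen FDH1 was the more abundant of these transcripts and ranked with the most abundant coding features of the glucose-limited cells. Its deposited TPM (a level per effective length, scaled to the same total in each library) was 1511, 1641, 1601 and 1540 in replicates 1 to 4, a mean of 1573 ± 58.5 (SD, n = 4). These levels put it between the 78th and the 85th place of 5378 coding features in the 4 libraries. FLD1 TPM was 333, 304, 301 and 366 in the same libraries, a mean of 326 ± 30.5 (SD, n = 4), at places 410 to 513. FDH1 TPM thus exceeded FLD1 TPM by 4.21 to 5.41 times, and no library of either gene overlapped with the other gene. Their summed TPM was 1899 ± 41.4 (SD, n = 4), of which FDH1 made up 80.8% to 84.4%.

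In all 12 libraries at 0% oxygen FDH1 was close to the bottom of the coding features, while FLD1 stayed well expressed. FDH1 TPM at 0.4 volume changes was 3.56, 4.34, 3.96 and 3.85 in replicates 1 to 4. At 4 volume changes it was 2.99, 4.45, 3.37 and 3.11. At 5 volume changes it was 3.48, 13.1, 6.68 and 5.03. The highest of these 12 values, 13.1, was far below the lowest at 30% oxygen, 1511. The FDH1 place among coding features ranged from 4997 to 5349 of 5378. By mean TPM, only 1.19%, 0.614% and 1.71% of coding features stood below FDH1 at 0.4, 4 and 5 volume changes.

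FLD1 TPM at 0.4 volume changes was 118, 136, 106 and 112 in replicates 1 to 4. At 4 volume changes it was 196, 185, 218 and 203, and at 5 volume changes it was 163, 175, 170 and 132. All 12 values lay below the 4 at 30% oxygen and above every FDH1 value at 0% oxygen. FLD1 stood between the 645th and the 1205th place of coding features in these libraries.

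**Figure D1:**
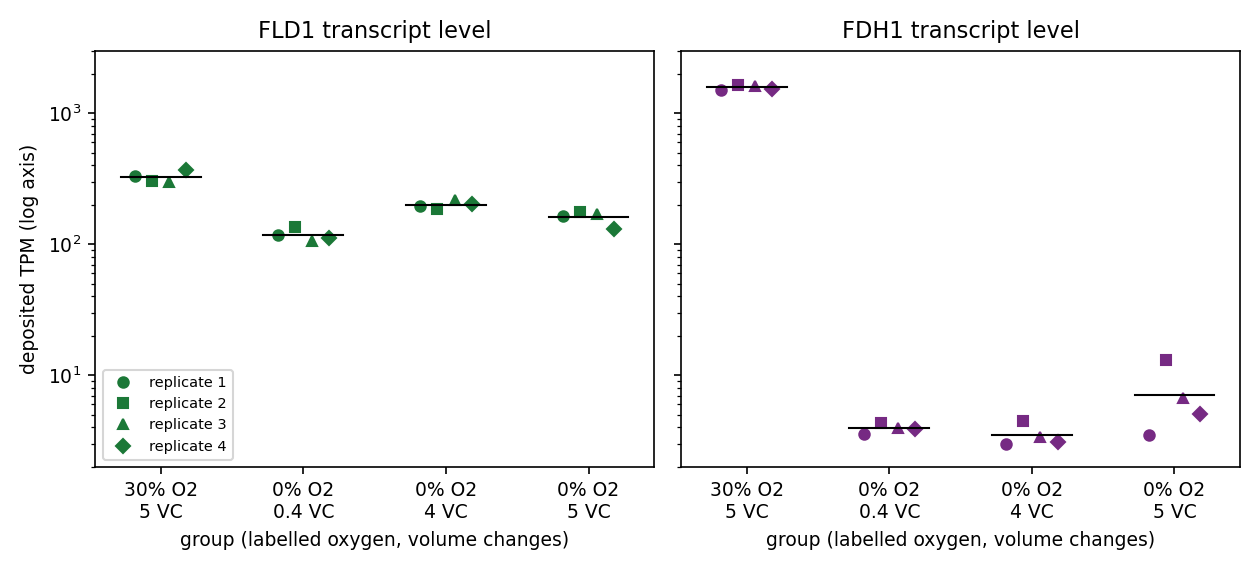
Deposited TPM on a log axis for FLD1 (left) and FDH1 (right) in each library, with 1 symbol per replicate and a bar at the group mean. FDH1 lies above FLD1 at 30% oxygen (1573 against 326 TPM on average) and far below it in all 12 libraries at 0% oxygen.

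How far these levels differed from the control was measured on estimated counts expressed as CPM, the count per library total after scaling with TMM factors. FDH1 at 30% oxygen stood at 1957, 2271, 2264 and 2136 CPM in replicates 1 to 4. At 0.4 volume changes it stood at 5.2, 6.33, 6.26 and 5.98 CPM, or 0.276% of the control mean. The log2 fold change was -8.50 ± 0.38 (SE, edgeR's quasi-likelihood fit of 16 libraries), a 363-fold lower level. At 4 and 5 volume changes the log2 fold changes against 30% oxygen were -8.78 ± 0.38 and -7.74 ± 0.36, or 440-fold and 213-fold lower levels. Of 5452 features tested, only FDH1 and PP7435_Chr1-3512.t01 had values as low as FDH1 in each of these comparisons. The 3 comparisons share the libraries at 30% oxygen.

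FLD1 differed far less from the control. It stood at 451, 440, 447 and 533 CPM at 30% oxygen and at 181, 208, 177 and 183 CPM at 0.4 volume changes. The log2 fold change was -1.32 ± 0.09 (SE), a 2.5-fold lower level that left 40% of the control mean. Against 30% oxygen the log2 fold changes were -0.68 ± 0.09 at 4 volume changes and -0.95 ± 0.09 at 5, with 62.4% and 51.7% of the control mean left. Among all tested features, 4.48%, 11.3% and 6.6% had values at least as low as FLD1 at 0.4, 4 and 5 volume changes. The 5th percentile of all log2 fold changes was -1.21, -1.20 and -1.16 in these comparisons, so FLD1 was past it at 0.4 volume changes and inside it later.

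For both genes all 4 libraries at 0% oxygen were below all 4 at 30% oxygen at each sampling. Of all tested features, 24.1% were likewise lower without overlap in CPM at 0.4 volume changes, 21.8% at 4 and 20.4% at 5. In TPM these shares were 32.6%, 21.1% and 23.1%. Since the genes were chosen on these contrasts, nothing is read from that count. In all, 694 features (12.7%) were lower without overlap at all 3 samplings, FLD1 and FDH1 among them.

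**Figure D2:**
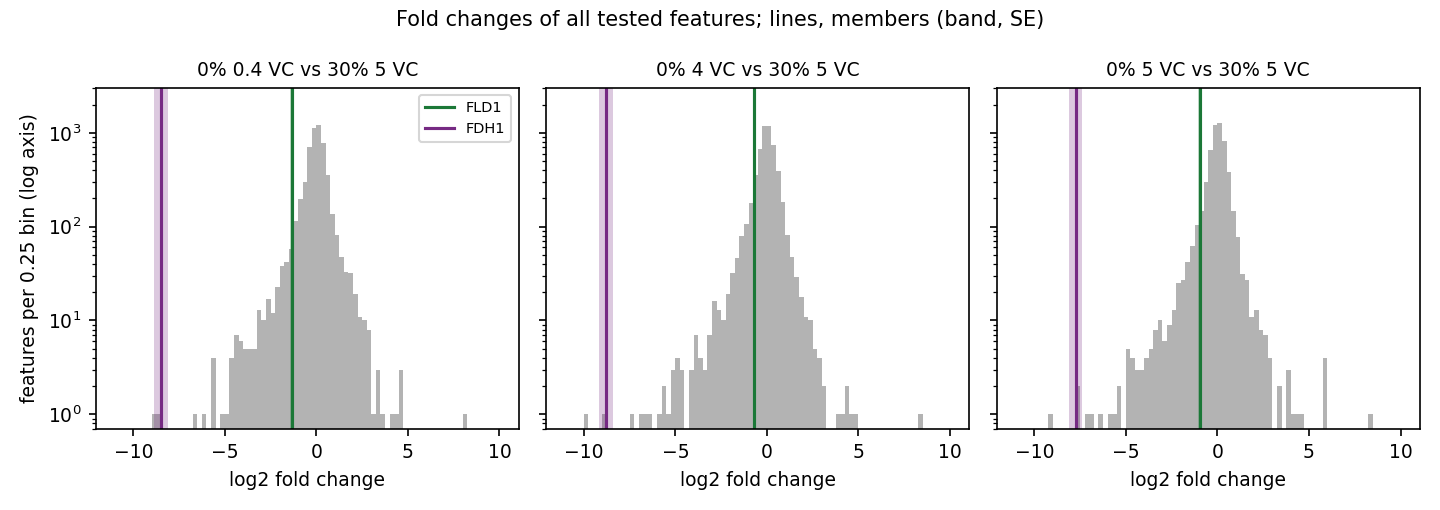
Histograms of the log2 fold changes of all 5452 tested features against 30% oxygen at 0.4, 4 and 5 volume changes of 0% oxygen (features per bin, log axis), with lines at FLD1 and FDH1 and bands of ± SE. FDH1 (-8.50, -8.78 and -7.74) sits at the far left tail, and FLD1 (-1.32, -0.68 and -0.95) sits in the left shoulder.

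Among coding features of high abundance, a drop past place 5000, as for FDH1, was rare. By mean TPM it held place 83 at 30% oxygen and places 5314, 5345 and 5286 at 0.4, 4 and 5 volume changes. Of the 100 coding features with the highest mean TPM at 30% oxygen, 4, 7 and 7 stood past place 1000 at these samplings. Past place 5000 there were 1, 2 and 3, FDH1 included in each. The median place of those 100 features was 62.5, 60.5 and 55.5. FLD1 held place 459 at 30% oxygen and places 1111, 691 and 819.

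**Figure D3:**
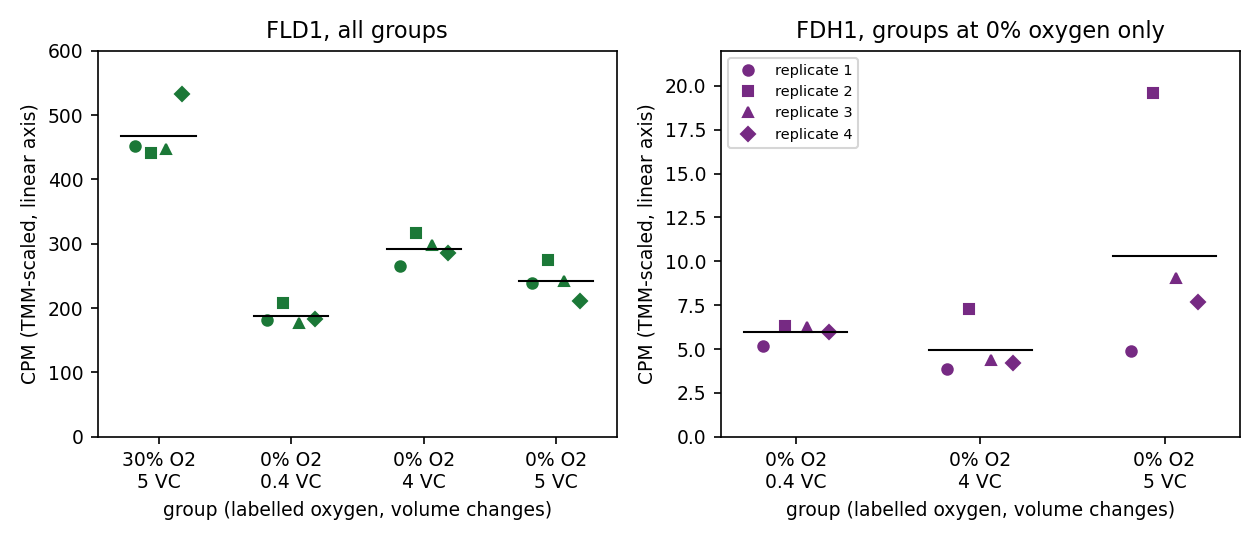
CPM on linear axes for FLD1 in all groups (left) and FDH1 in the groups at 0% oxygen (right), with 1 symbol per replicate and a bar at the group mean. FLD1 is lowest at 0.4 volume changes and intermediate at 4 and 5, while FDH1 stays below 20 CPM with a wide spread at 5 volume changes.

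The genes also took different courses within 0% oxygen. FLD1 stood at 266, 316, 299 and 286 CPM at 4 volume changes, above all 4 libraries at 0.4 volume changes, with a log2 fold change of 0.64 ± 0.09 (SE). Of all tested features, 15.9% were higher without overlap in that comparison (18.2% in TPM). At 5 volume changes FLD1 stood at 239, 275, 243 and 212 CPM, again above all libraries at 0.4 volume changes, with a log2 fold change of 0.37 ± 0.09 and a background of 14.8%. That separation was narrow, 212 against 208 CPM, and on deposited TPM the groups at 5 and 0.4 volume changes overlapped.

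The order of FLD1 levels was therefore 30% oxygen, then 4, 5 and 0.4 volume changes of 0% oxygen. The neighbours 4 and 5 volume changes overlapped in CPM, as did all but 5.72% of the features tested, with a log2 fold change of -0.27 ± 0.09 (SE) at 5. On TPM all 4 libraries at 5 volume changes lay below those at 4, as did 2.73% of all tested features. Being lower at 0.4 volume changes than at 30% oxygen, higher again at 4 and still lower than at 30% oxygen, each without overlap, was shared by 147 features (2.7% of those tested), FLD1 included.

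For FDH1 no groups at 0% oxygen were separated without overlap. At 4 volume changes it stood at 3.87, 7.27, 4.41 and 4.2 CPM, a range that contains all 4 values at 0.4 volume changes only through replicate 2. The other 3 libraries lay below the lowest value at 0.4 volume changes, 5.2 CPM. The log2 fold change between the groups was -0.28 ± 0.30 (SE), and -0.52 ± 0.31 without replicate 2 at 4 volume changes. At 5 volume changes it stood at 4.86, 19.6, 9.07 and 7.7 CPM, with a mean of 10.3 ± 6.42 (SD, n = 4). By mean the order was 5, 0.4 and 4 volume changes, and the libraries of each group overlapped with those of both others. Between 5 and 4 volume changes the only crossing was replicate 2 at 4 (7.27 CPM) above replicate 1 at 5 (4.86 CPM). Within each of the 4 replicate numbers the level at 5 was higher, but equal numbers are not known to mark the same culture. The share of all features doing so was not computed.

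The wider range at 5 volume changes came mostly from replicate 2, with 19.6 CPM from 434 reads in the library with the lowest total. The log2 fold changes at 5 volume changes were 0.77 ± 0.29 (SE) against 0.4 and 1.04 ± 0.30 against 4 volume changes. These SEs rest on a spread shared by all 4 groups, and the FDH1 spread was widest at 5 volume changes. In fits of the 2 groups alone the values were 0.78 ± 0.34 and 1.06 ± 0.39 (SE). On log2(TPM + 0.1) they were 0.66 ± 0.40 and 0.85 ± 0.42 (SE). Without replicate 2 the log2 fold changes in the fit of all groups were 0.28 and 0.55. The mean of the other 3 libraries was 7.21 ± 2.15 CPM (SD, n = 3). The part of library depth in this value was not tested. FDH1 CPM differed 4.02-fold between its highest and lowest library at 5 volume changes, and 17 of 5364 features averaging 50 or more counts (0.317%) had a ratio at least as large.

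The spread of FDH1 between replicates differed strongly between groups. The SD of its log2 CPM was 0.1 at 30% oxygen, 0.129 at 0.4, 0.406 at 4 and 0.83 at 5 volume changes. Of all tested features, 72.1%, 43.5%, 9.52% and 0.77% had a larger SD in those groups, most of them from other levels of abundance. For FLD1 the SD stayed between 0.105 and 0.153, and 55.6% to 81.8% of features had a larger one.

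The lowest FDH1 value of each of the 4 groups was in replicate 1, and the highest in replicate 2, in both CPM and TPM. The CPM ratio of these libraries was 1.16 at 30% oxygen, 1.22 at 0.4, 1.88 at 4 and 4.02 at 5 volume changes. Replicates 2 and 3 were close at 30% oxygen (2271 and 2264 CPM) and at 0.4 volume changes (6.33 and 6.26 CPM). The share of all features with such a recurring order was not computed. FLD1 CPM was highest in replicate 2 of the 3 groups at 0% oxygen, but in replicate 4 at 30% oxygen. On TPM, FLD1 at 4 volume changes was instead lowest in replicate 2 (185) and highest in replicate 3 (218). The TMM factor of that replicate 2 was 0.866, against 1.04 to 1.05 in the rest of its group. The lowest FLD1 CPM was in replicate 2 at 30% oxygen and in replicates 3, 1 and 4 at 0.4, 4 and 5 volume changes. Over the 16 libraries, deviations of FLD1 and FDH1 from their group means had a Pearson r of 0.54 (p = 0.086) and a Spearman rho of 0.40 (p = 0.161) in two-sided permutation tests within groups. Only this relation was examined, by several measures and settings, and p was not adjusted over them. Without the 2 libraries farthest from the median of the FLD1 deviations, r was 0.39 (permutation p = 0.19), and no relation was called.

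The ratio of FDH1 to FLD1 does not depend on the scaling of a library. The log2 ratio of their TPM was 2.28 ± 0.18 at 30% oxygen, -4.91 ± 0.13 at 0.4, -5.86 ± 0.32 at 4 and -4.67 ± 0.74 at 5 volume changes (SD, n = 4). At 0.4 volume changes FLD1 TPM was 26.9 to 33.2 times FDH1 TPM, and at 4 volume changes 41.5 to 65.5 times. At 5 volume changes it was 46.9, 13.4, 25.5 and 26.2 times in replicates 1 to 4. All 4 ratios at 4 volume changes were below all 4 at 0.4, whereas those at 5 volume changes overlapped with both. On TPM, FLD1 itself was higher at 4 than at 0.4 without overlap, as were 18.2% of tested features, while FDH1 overlapped. How often ratios of other feature pairs separate was not computed. The summed TPM of the genes was 122 ± 13.0, 204 ± 13.5 and 167 ± 22.2 (SD, n = 4) at 0.4, 4 and 5 volume changes.

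**Figure D4:**
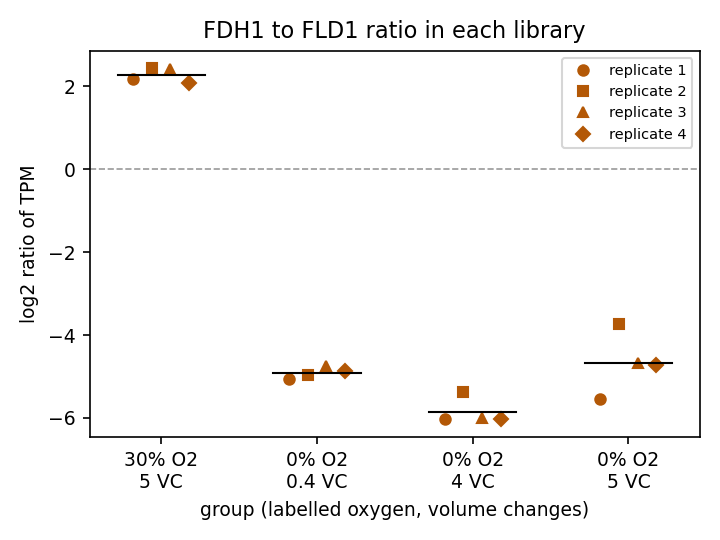
Log2 ratio of FDH1 TPM to FLD1 TPM in each library, with 1 symbol per replicate, a bar at the group mean and a dashed line at equal levels. The ratio is above the line at 30% oxygen (2.28 on average) and below it in all 12 libraries at 0% oxygen.

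The features with the profile most like each gene were sought by the root-mean-square distance of log2 CPM, centred over 16 libraries, among features averaging 50 or more counts. FLD1 was nearest to PP7435_Chr1-0456.t01, at a distance of 0.146 on the log2 scale, where the median feature lay at 0.559. That feature stood at 75.2 ± 7.98 CPM at 30% oxygen and at 34.0 ± 2.3, 43.8 ± 1.44 and 41.5 ± 3.27 CPM (SD, n = 4) at 0.4, 4 and 5 volume changes. Its log2 fold changes against 30% oxygen were -1.15, -0.78 and -0.86. Of 5363 features compared, 5133 lay within a distance of 1 of FLD1. With 4 group means in place of 16 libraries another feature was nearest to FLD1.

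FDH1 was nearest to PP7435_Chr1-3512.t01, a feature of only 123 nt with no name in the tables, at a distance of 0.698 where the median feature lay at 3.68. Only 2 features lay within a distance of 1 of FDH1. PP7435_Chr1-3512.t01 stood at 1463 ± 144 CPM at 30% oxygen and at 2.87 ± 0.74, 1.45 ± 0.356 and 2.49 ± 0.397 CPM (SD, n = 4) at 0% oxygen. Its levels at 0% oxygen rest on 25 to 129 estimated counts per library. In replicate 2 at 5 volume changes it stood at 2.8 CPM, within the 2.14 to 2.88 CPM of its group, so it did not share the high FDH1 value of that library. FLD1 and FDH1 were far apart, at a distance of 3.26. FLD1 was the 320th nearest of 5363 features to FDH1, and FDH1 the 5360th nearest to FLD1.

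**Figure D5:**
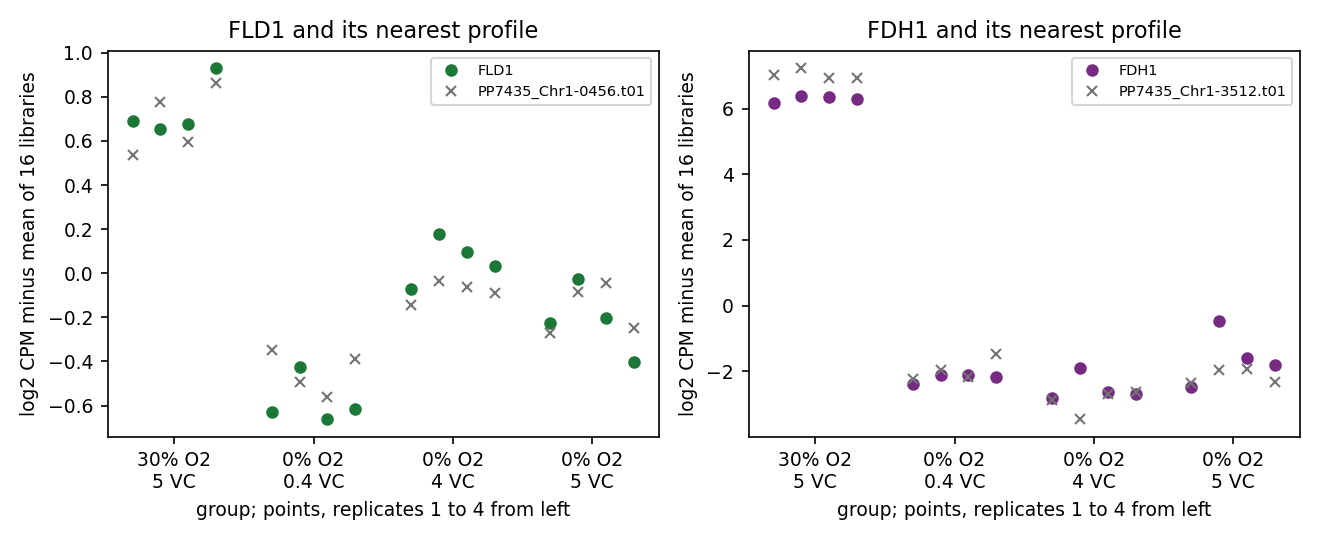
Log2 CPM minus the mean of 16 libraries for FLD1 (left) and FDH1 (right), each with its nearest feature (crosses), in replicates 1 to 4 of each group. Each nearest feature is high at 30% oxygen and low in all 12 libraries at 0% oxygen, on a scale several times wider for FDH1.

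Features with neighbouring identifier numbers did not share these levels as a group. Within 5 numbers of FLD1, 10 features were tested, with 3 lower and 1 higher without overlap at 0.4 volume changes against 30% oxygen and a median log2 fold change of -0.14. Within 5 numbers of FDH1, 8 features were tested, with 2 lower and 3 higher and a median of -0.01. Over all tested features the shares in that comparison were 24.1% lower and 24.2% higher. The lowest value among the neighbours of FDH1 was -1.04, against -8.50 for FDH1 itself. At 4 and 5 volume changes the medians were -0.10 and -0.06 around FLD1 and 0.19 and 0.17 around FDH1. That identifier numbers follow the order on the chromosome is not stated in the tables.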

How the data were processed

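Per the labels' protocols, directional libraries were made after depletion of ribosomal RNA. The submitters' processing notes name kallisto 0.44.0, Bowtie2 2.3.4.1, cutadapt 1.18, SAMtools 1.9, DESeq2 1.36.0 and R 4.2.0 with no roles. The build, annotation and strand setting of the counting were not given in the sources used here. Per the file headers, each deposited table gives an estimated count, not normalised, and a TPM value, which the authors' quantification scaled per effective length to the same total in each library.

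Estimated counts were rounded. In edgeR 4.0.16 (R 4.3.3), filterByExpr removed 112 features, and all 16 libraries, scaled with TMM factors, entered a quasi-likelihood model of 4 group means. SEs were derived from the F statistic. Counts on this scale are CPM, and log2 CPM used a prior count of 2. Non-overlap means that all 4 values of a group lie beyond all 4 of another. The permutation test used 100000 permutations. The script was tested on simulated data.

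The genes, lists and comparisons were chosen with earlier results of these data known. The named features are both genes and the nearest profile of each. Other genes of methanol use were to be found by symbol, but 0 identifiers matched the 5040 genes of the reference table (ASM2700v1), so they are not analysed here. Replicates are those of the labels, and errors measure only the spread between these samples, which may be technical. Alternatives were DESeq2 1.42.0, factors by RLE or upper quartile, TPM, no filter, the 2 groups alone, a replicate block and each library left out, and, added after the data were seen, r features excluded.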

Additional observations from a re-analysis of the deposited data

Results flagged for a closer look

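In 12 sets of 4 libraries (CPM of each gene and their log2 TPM ratio, per group), 3 had a library that stood apart. Chance gives about 1 in 20 for a single set, and these sets are not independent. TPM of each gene was not examined in this way. FLD1 stood at 533 CPM in replicate 4 at 30% oxygen, against 440 to 451 CPM in the other 3 libraries. Its TPM there was 366, against 301 to 333. At 4 volume changes of 0% oxygen FDH1 stood at 7.27 CPM in replicate 2 and at 3.87 to 4.41 CPM in the rest. Its TPM there was 4.45, against 2.99 to 3.37, and the library had the lowest TMM factor, 0.866. The log2 ratio of FDH1 to FLD1 TPM was -5.37 in the same library, against -6.03 to -6.01, and shares its FDH1 value with the previous one. FDH1 in replicate 2 at 5 volume changes, at 19.6 CPM, was not among them, since the other 3 libraries of that group also differed widely.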

How the results depend on the processing

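No fold change of either gene changed sign under any alternative. On log2(TPM + 1), values moved by more than the replicate spread for FLD1 at 0.4 volume changes against 30% oxygen (-1.46) and at 4 against 0.4 volume changes (0.76), and for FDH1 at 0.4 volume changes against 30% oxygen (-8.32). On log2(TPM + 0.1) the same FLD1 values were -1.46 and 0.76. TPM shifted the median of all features by -0.13 and 0.12 in these comparisons; relative to it the FLD1 values were -1.33 and 0.64. With all 16 libraries 312 features did not overlap between 4 and 5 volume changes, and 418 to 607 did not with a library left out, where fewer libraries make separation easier. Over all features, libraries with equal replicate numbers did not deviate together throughout (r above 0.1 in 11 of 24 pairs, all 4 pairs of a comparison in 0 of 6, and 8 of 24 libraries correlated best with their own number). With the replicate block, FDH1 at 0.4 volume changes against 30% oxygen was -8.52 ± 0.28 and FLD1 -1.33 ± 0.09 (SE). In a fit of those 2 groups alone the FDH1 SE was 0.12 in place of 0.38; that fit leaves out 4 and 5 volume changes, where the FDH1 spread was wider. With log2(TPM + 0.1), r between the deviations of the genes was 0.25. On log2(TPM + 1) another feature was nearest to FDH1, at a distance of 0.851, with PP7435_Chr1-3512.t01 next at 0.853. At 131 to 434 reads per library, FDH1 levels at 0% oxygen are less precise than FLD1 levels.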
